A study of Mus musculus with 4 samples.

Results

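Bone morphogenetic protein (BMP) signalling and its Id target genes were examined, together with the anti-Müllerian hormone receptor gene Amhr2, in mouse myoblasts differentiated with or without myostatin. The 10 genes were Bmp4, Grem1, Bmpr1a, Amhr2, Smad1, Smad6, Id1, Id2, Id3 and Id4. They were found by the gene name printed in the scanner files: 10 of 27745 names, read by 15 of the 41174 probes that are not controls. The list was drawn up with the myostatin ratios of these arrays already known, so the ratios of its members are given as a description and without a test.

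C2C12 is a mouse myoblast line that fuses into myotubes when serum is lowered. The GDF8 samples were C2C12 cells kept in differentiation conditions for 6 days, and GDF8, a recombinant mouse myostatin, was added at 20 nM every 24 h, and the untreated samples were C2C12 cells differentiated for 6 days without it. Both had been grown in 10% fetal bovine serum, and the labels give the horse serum of the differentiation medium as 2% in one place and 10% in another. The study used 4 arrays, called biological replicates 1 to 4, and each held 1 GDF8 and 1 untreated RNA, with GDF8 in the red dye Cy5 on replicates 2 and 3 and in the green dye Cy3 on replicates 1 and 4. The labels call replicates 1 and 4 dye swaps as well, and do not say whether any arrays share RNA or how the cultures were kept apart. Errors and p-values therefore treat the 4 arrays as separate RNA pairs, and would be too small if some were the same RNA with the dyes exchanged. The RNA came from whole cultures, in which fewer cells of a type and less RNA per cell cannot be told apart.

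BMP ligands bind type I and type II serine/threonine kinase receptors, and the type I receptors phosphorylate Smad1, Smad5 and Smad9, which enter the nucleus with Smad4. Id1, Id2 and Id3 are well-known direct targets. Id proteins have a helix-loop-helix but no DNA-binding region, so they hold E proteins and myogenic factors such as MyoD off their E-box sites, and BMP ligands are known to turn C2C12 cells away from muscle and towards bone-like gene expression. Myostatin belongs to the same ligand family but signals mainly through Smad2 and Smad3. Amhr2 is the type II receptor of anti-Müllerian hormone and shares type I receptors and Smads with the BMPs.

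Of the 10 genes, Amhr2 had by far the lowest ratio after GDF8, at 2.28-fold below untreated cells, and Id4 came next at 1.39-fold below. The other 8 genes lay within 0.24 log2 units of no difference by their brighter probe, with Id1 at the top (0.24 ± 0.13, SE, n = 4 arrays) and Grem1 at the bottom (-0.16 ± 0.09). Ratios are log2 of GDF8 over untreated throughout, and ± is limma's standard error unless SD is written. In limma's fit over 26579 probes, 1 of the 15 member probes (Amhr2) was lower at a Benjamini-Hochberg adjusted p under 0.05 and 0 were higher, where 1.95% of all tested probes were lower, 0.771% higher and 2.72% either. Nothing is read from that count, since the genes were chosen on the same ratios. The median ratio was 0.04 over the 15 member probes and 0.01 over all tested probes. The counts behind the 1.95% and 0.771% were 519 lower and 205 higher, and they dropped to 185 and 30 without replicate 2 and to 211 and 60 without replicate 4.

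**Figure D1:**
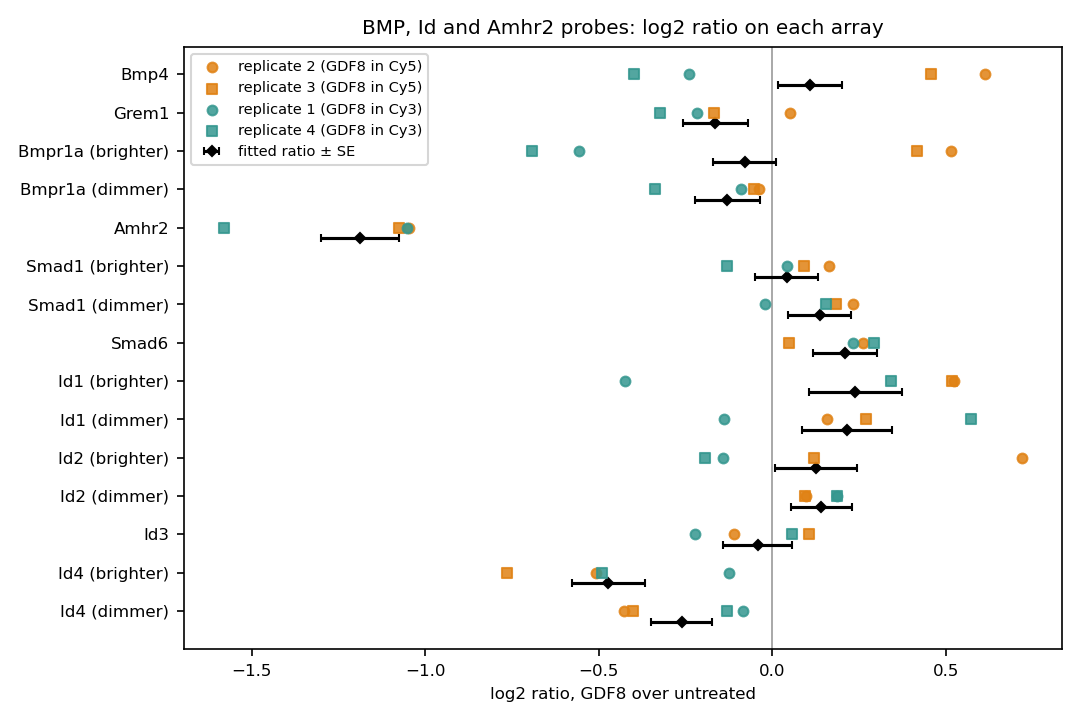
Log2 ratio of GDF8 over untreated (x axis) for the 15 probes (y axis), with a coloured point for each of the 4 arrays and a black diamond with its standard error for the fitted ratio. Amhr2 lies between -1.58 and -1.05 on all arrays, both Id4 probes lie below 0 on all arrays, and Bmp4 and the brighter Bmpr1a probe split by dye orientation.

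Promoters are shown for Amhr2, which had the lowest ratio, for Id4, the Id gene with the lowest ratio, and for Id2, another Id gene, which has both kinds of letters marked here. The sequences are RefSeq's, build GRCm38.p6, and run from 250 bases before to 50 bases after the gene's start, 5′ to 3′ on the strand of the gene. A window was given for 9 of the 10 genes, and none for Id1. Capitals mark the E-box letters CANNTG and the GC-rich letters GGCGCC, a kind of element known from BMP-responsive promoters. Both read the same on either strand, and every CAGCTG is also a CANNTG.
Amhr2 (chr15:102445117-102445416, plus strand): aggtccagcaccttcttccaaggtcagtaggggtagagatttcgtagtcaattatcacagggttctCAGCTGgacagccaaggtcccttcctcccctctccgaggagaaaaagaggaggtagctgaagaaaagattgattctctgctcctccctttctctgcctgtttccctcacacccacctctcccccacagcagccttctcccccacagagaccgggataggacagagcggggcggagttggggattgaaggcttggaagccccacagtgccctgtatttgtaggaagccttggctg
Id4 (chr13:48260866-48261165, plus strand): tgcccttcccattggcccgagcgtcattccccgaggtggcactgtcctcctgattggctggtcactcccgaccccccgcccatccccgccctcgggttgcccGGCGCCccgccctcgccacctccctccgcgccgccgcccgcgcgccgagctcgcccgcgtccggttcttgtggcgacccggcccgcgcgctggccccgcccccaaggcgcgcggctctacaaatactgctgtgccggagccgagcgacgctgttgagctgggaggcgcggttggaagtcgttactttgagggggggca
Id2 (chr12:25096043-25096342, minus strand): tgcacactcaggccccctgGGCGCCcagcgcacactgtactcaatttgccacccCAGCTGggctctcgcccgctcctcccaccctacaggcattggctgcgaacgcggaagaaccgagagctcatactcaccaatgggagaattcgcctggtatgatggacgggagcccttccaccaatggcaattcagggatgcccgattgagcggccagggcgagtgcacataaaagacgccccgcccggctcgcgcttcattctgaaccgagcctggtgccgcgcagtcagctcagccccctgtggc
The Amhr2 window has 1 E-box, CAGCTG, the form that myogenic factors are known to favour, whose first base lies at -184 from the start, and no GGCGCC. The Id4 window has no CANNTG and 1 GGCGCC at -148. The Id2 window has both, CAGCTG at -196 and GGCGCC at -231. CAGCTG was found in 2 of the 9 member windows and in 16.3% of all 32851 windows of the same length, and GGCGCC in 4 of 9 and in 11.9%. CANNTG was in 4 of 9 and in 72.3% of all windows, and the Smad-box letters CAGAC, or GTCTG on the other strand, in 2 of 9 (Grem1 and Id3) and in 49.6%. The windows with GGCGCC were those of Bmpr1a, Id4, Grem1 and Id2, with GC contents of 79.3%, 73.3%, 70.7% and 63.3%. The Amhr2 window has a GC content of 55.3%, and the median of all windows was 52.7%. The shares over all windows are not matched for GC content, so no enrichment is read from them. These matches describe letters in a short window and say nothing of binding.

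All 15 member probes were well above background on all 4 arrays in both GDF8 and untreated cells. Saturation touched 3 of them: Smad1's brighter probe, the Bmp4 probe and the brighter Bmpr1a probe. Among all tested probes 18.5% had a saturated channel. Arrays of the same dye orientation resembled each other more than arrays of opposite orientation: over the 26579 tested probes the ratios of replicates 2 and 3 correlated at 0.45 and those of replicates 1 and 4 at 0.44, while pairs of opposite orientation ran from -0.18 to 0.18. The ratios given here come from a fit with a dye term for every probe. Among the members, 5 of 15 probes had a dye effect larger than their GDF8 ratio, against 59% of all tested probes.

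Muscle markers were well above background, and so were some markers of other cells. All 8 muscle markers looked at (Des, Myod1, Myog, Myh3, Acta1, Ckm, Cdh15 and Pax7) were well above background in every channel, and 5 of them were saturated in all untreated channels. Of the 8, only Ckm, muscle creatine kinase, passed the threshold, and it was lower after GDF8 (-0.93 ± 0.17, limma adjusted p = 0.044). Ckm was lower on every array, least so on replicate 3. Pax7 (0.19) and Myod1 (-0.01, with saturated channels in both groups) did not pass. The 5 saturated markers are given no ratio, so a general fall of muscle markers is not shown. Among markers of other cells, Ptprc and Pecam1 of blood and endothelium, Wt1 and Dmrt1 of gonadal support cells, Lep of fat and Ibsp of bone were above background in 0 of 4 GDF8 and 0 of 4 untreated channels. Of 8 osteoblast markers 5 were above background in every channel, and Phex (-1.04 ± 0.13, limma adjusted p = 0.012) and Dmp1 (-0.63 ± 0.10, adjusted p = 0.023) were lower after GDF8. Spp1, another of the 5, was saturated in 3 of 4 GDF8 and 4 of 4 untreated channels and is given no ratio. Of 8 gonadal support markers 3 were above background in every channel (Foxl2, Sox9 and Inha), with ratios of 0.06, 0.05 and -0.13. Of 6 fat markers 3 were above background in every channel (Pparg, Cebpa and Fabp4), as were 3 of 6 blood and endothelial markers (Kdr, Hba-a1 and Cd68). In these 2 lists 0 passed the threshold. The part of these markers in the ratios below was not tested.

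Bmp4, a BMP ligand, had normalised log2 signals of 14.94, 15.20, 15.34 and 14.98 in GDF8 replicates 1 to 4, against 15.18, 14.58, 14.88 and 15.38 in untreated replicates 1 to 4. The groups overlapped throughout. Its array ratios were 0.61 and 0.46 with GDF8 in Cy5 and -0.24 and -0.40 with GDF8 in Cy3, and with the dye effect of 0.43 taken out the ratio was 0.11 ± 0.09. Bmp4 is printed as 10 spots of the same probe on every array, which shows the error of a single spot. The standard deviation over the 10 spots was 0.22, 0.10, 0.09 and 0.11 on replicates 1 to 4, or 0.13 on average, against a median of 0.08 over the 245 probes printed 10 times. The split by dye orientation was therefore larger than the spread between spots: all 10 spots were above 0 on replicates 2 and 3 and all 10 below 0 on replicate 4. On replicate 1 all but 1 spot were below 0, and that spot gave 0.35. In the authors' deposited table, which carries the scanner software's own dye normalisation, Bmp4 stands at 0.12, 0.35, 0.11 and -0.05 on replicates 1 to 4, a narrower split. The red channel was saturated in 3 of 10 spots on replicate 1 and in 7 of 10 on replicate 2.

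**Figure D2:**
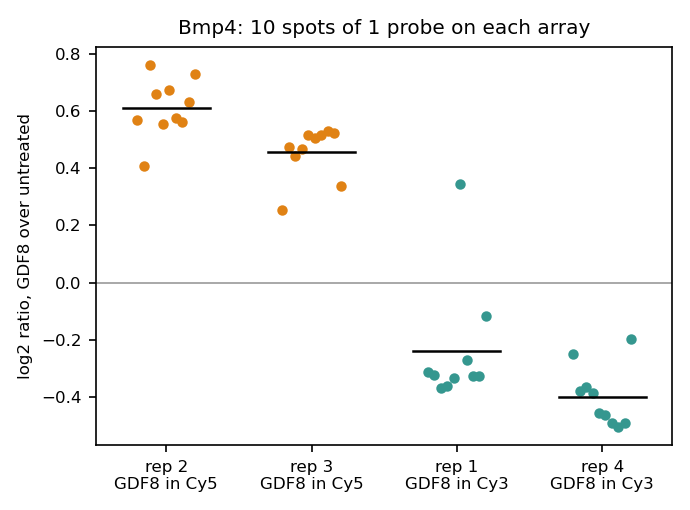
Log2 ratio of GDF8 over untreated (y axis) for each of the 10 Bmp4 spots on the 4 arrays (x axis, grouped by dye orientation), with a bar at each array's mean. The means are 0.61 and 0.46 on the arrays with GDF8 in Cy5 and -0.24 and -0.40 on those with GDF8 in Cy3.

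Grem1 encodes gremlin, a secreted protein that binds BMP2 and BMP4 and keeps them from their receptors. Its signals were 13.47, 13.71, 13.62 and 13.54 in GDF8 replicates 1 to 4, against 13.68, 13.66, 13.79 and 13.86 in untreated replicates 1 to 4. GDF8 was the lower sample on 3 of 4 arrays, but the groups overlapped, since replicate 2 turned the other way. The fitted ratio was -0.16 ± 0.09.

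Bmpr1a, the type I receptor also called ALK3, was read by 2 probes. The brighter gave array ratios of 0.51 and 0.42 with GDF8 in Cy5 and -0.56 and -0.69 with GDF8 in Cy3, the widest dye split among the members in these ratios (dye effect 0.55), and was saturated in 1 untreated channel. In the authors' deposited table this probe stands at -0.11, 0.005, 0.10 and -0.35 on replicates 1 to 4, a narrower split. The dimmer probe, with a dye effect of only 0.08, gave -0.09, -0.04, -0.05 and -0.34 on replicates 1 to 4. After the dye term the probes came to -0.08 ± 0.09 and -0.13 ± 0.09, a difference of 0.05 ± 0.13. These fitted ratios stand for 1.06-fold and 1.09-fold below untreated cells, differences close in size to their standard errors. The dimmer probe was below 0 on every array, as were 7.91% of all tested probes.

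Amhr2 was read by 1 probe, which was never saturated. Its log2 signals were 11.38, 11.43, 11.28 and 10.86 in GDF8 replicates 1 to 4, against 12.43, 12.48, 12.36 and 12.44 in untreated replicates 1 to 4. The groups were clear of each other, with the highest GDF8 signal (11.43) well under the lowest untreated one (12.36). All GDF8 signals lay below all untreated ones for 3.51% of all tested probes. GDF8 cells averaged 11.24 ± 0.26 and untreated cells 12.43 ± 0.05 (SD, n = 4 each), so the untreated samples were tightly grouped and GDF8 replicate 4 lay under the other GDF8 samples. The array ratios were -1.05, -1.05, -1.08 and -1.58 on replicates 1 to 4, and the fitted ratio was -1.19 ± 0.11, or 2.28-fold lower. In the authors' deposited table the same probe stands at -1.08, -1.05, -1.13 and -1.68. Of the 26579 tested probes, 52 had a lower ratio. The dye effect was small (0.13): the mean ratio was -1.06 with GDF8 in Cy5 and -1.32 with GDF8 in Cy3. Without replicate 4 the ratio was -1.06.

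The genes beside Amhr2 did not share its ratio. On the RefSeq map of chromosome 15 the nearest measured genes are Sp1, Sp7 and Aaas before it and Prr13, Pcbp2 and Map3k12 after it. Their ratios ran from -0.04 (Sp1) to 0.14 (Map3k12), 0 of the 6 passed the adjusted threshold, and Sp1, Prr13 and Pcbp2 had saturated channels. Amh, the gene of the hormone that Amhr2 binds, was well above background in 2 of 4 GDF8 and 1 of 4 untreated channels, so it was not tested. The 5 probes of other genes whose array ratios lay nearest to those of Amhr2 belonged to Cd36, Pkhd1, Trdn, Ccdc150 and Myot, at Euclidean distances of 0.13 to 0.29 log2 units over the 4 arrays. Cd36 carries fatty acids, Trdn (triadin) sits at the calcium release sites of muscle and Myot (myotilin) at the Z-disc. No role is given here for Pkhd1 and Ccdc150, and a shared role of the 5 was not tested. The fitted ratios of the 5 were -1.14, -1.28, -1.14, -1.12 and -1.13, close to that of Amhr2 because they were picked by their array ratios.

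**Figure D3:**
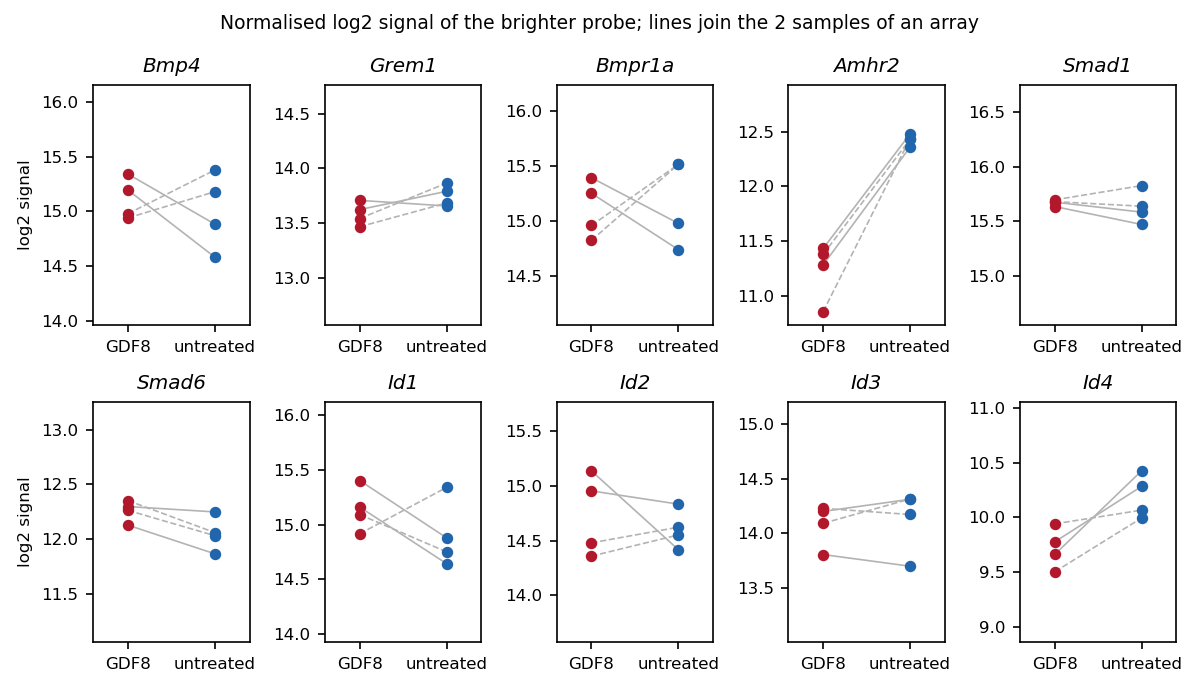
Normalised log2 signal (y axis, the same span in every panel) of the brighter probe of each gene in the 4 GDF8 samples (red, left) and the 4 untreated samples (blue, right), with a line for each array, solid where GDF8 was in Cy5 and dashed where it was in Cy3. Amhr2 runs from 10.86 to 11.43 in GDF8 cells and from 12.36 to 12.48 in untreated cells, and the Id4 groups also stay apart, by a narrow gap.

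Smad1, the BMP signal carrier, was read by 2 probes. The brighter was saturated in 2 of 4 GDF8 and 2 of 4 untreated channels, always in red, which limits how far its ratio can move: it gave 0.04, 0.16, 0.09 and -0.13 on replicates 1 to 4, while the authors' deposited table has 0.65, -0.63, -0.47 and 0.57, a split by dye. The dimmer probe was never saturated and gave -0.02, 0.23, 0.18 and 0.15, with signals of 13.42, 13.20, 13.38 and 13.03 in GDF8 replicates 1 to 4, against 13.45, 12.97, 13.20 and 12.88 in untreated replicates 1 to 4. The fitted ratios were 0.04 ± 0.09 and 0.14 ± 0.09, and the groups overlapped for both probes.

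Smad6 is an inhibitory Smad that blocks Smad1 activation and is itself induced by BMPs. Its signals were 12.26, 12.13, 12.30 and 12.35 in GDF8 replicates 1 to 4, against 12.03, 11.86, 12.25 and 12.06 in untreated replicates 1 to 4. GDF8 was the higher sample on all 4 arrays, as for 7.69% of all tested probes, by 0.23, 0.26, 0.05 and 0.29 log2 units on replicates 1 to 4. The groups overlapped, and the fitted ratio was 0.21 ± 0.09, or 1.16-fold.

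The Id genes are given one by one, and differences between them were not tested. Id1 signals by the brighter probe were 14.92, 15.40, 15.16 and 15.09 in GDF8 replicates 1 to 4, against 15.34, 14.88, 14.64 and 14.75 in untreated replicates 1 to 4. GDF8 was higher on 3 arrays (0.52, 0.52 and 0.34 on replicates 2, 3 and 4) and lower on replicate 1 (-0.42), and the dimmer Id1 probe gave the same signs (0.16, 0.27, 0.57 and -0.14). The probes came to 0.24 ± 0.13 and 0.22 ± 0.13, the largest errors among the members, and the standard deviation of the 4 array ratios of the brighter probe was 0.45. In the authors' deposited table the brighter probe stands at 0.02, -0.09, 0.21 and 0.61, so its sign on replicates 1 and 2 differs from that given here; which step of the processing turns it was not tested. Leaving out replicates in turn moved the brighter probe from 0.05 to 0.43.

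Id2 signals by the brighter probe were 14.48, 15.14, 14.95 and 14.36 in GDF8 replicates 1 to 4, against 14.62, 14.42, 14.83 and 14.55 in untreated replicates 1 to 4. The sign followed the dye (0.72 and 0.12 with GDF8 in Cy5, -0.14 and -0.19 with GDF8 in Cy3) and the fitted ratio was 0.13 ± 0.12. In the authors' deposited table this probe stands at 0.06, 0.33, -0.16 and -0.13 on replicates 1 to 4, where the sign does not follow the dye. The dimmer Id2 probe was steadier, with a dye effect of -0.04 and ratios of 0.19, 0.10, 0.10 and 0.19 on replicates 1 to 4. It came to 0.14 ± 0.09, and the brighter minus the dimmer was -0.02 ± 0.15.

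Id3 was read by 1 probe, with signals of 14.09, 14.20, 13.81 and 14.23 in GDF8 replicates 1 to 4, against 14.31, 14.31, 13.70 and 14.17 in untreated replicates 1 to 4. GDF8 was lower on replicates 1 and 2 and higher on replicates 3 and 4. The fitted ratio was -0.04 ± 0.10, and the groups overlapped.

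Id4 had lower signals in GDF8 cells on every array by both probes. The brighter had signals of 9.94, 9.78, 9.66 and 9.50 in GDF8 replicates 1 to 4, against 10.07, 10.29, 10.43 and 9.996 in untreated replicates 1 to 4. The dimmer had 8.94, 8.76, 8.88 and 8.82 in GDF8 replicates 1 to 4, against 9.02, 9.18, 9.28 and 8.95 in untreated replicates 1 to 4. In each case all 4 GDF8 signals lay under all 4 untreated ones, which held for 3.51% of all tested probes, but the gap was narrow: replicate 1 differed by only -0.13 and -0.08 on the array itself. The fitted ratios were -0.47 ± 0.11 (1.39-fold lower) and -0.26 ± 0.09, a difference between probes of -0.21 ± 0.14. Neither probe passed the adjusted threshold. In the authors' deposited table the brighter probe stands at -0.16, -0.57, -0.87 and -0.51 and the dimmer at 0.01, -0.56, -0.54 and -0.12, so replicate 1 shows no lower value there by the dimmer probe. No member had all 4 GDF8 signals above all 4 untreated ones, a pattern of 2.05% of tested probes. The mean ratio of the brighter probe was -0.64 with GDF8 in Cy5 and -0.31 with GDF8 in Cy3, and 699 of the 26579 tested probes had a lower fitted ratio.

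Genes next to Id4 on chromosome 13 were near 0, with Rnf144b, Dek and Kdm1b before it at -0.09, 0.19 and -0.12 and Zfp169, Ptpdc1 and Phf2 after it at -0.06, 0.11 and 0.05. The 5 probes nearest to Id4 by their 4 array ratios were those of Gm4989, Frmd5, Traf1, Ccdc88b and Pclo, at distances of 0.12 to 0.22. In all, 29 probes lay within 0.3 log2 units of Id4 and 5 within 0.3 of Amhr2.

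The rest of the pathway was read from 81 other genes in 6 lists by role, written with earlier results of these arrays known. Of these, 63 were measured, 17 were not well above background on all 4 arrays of either treatment, and Dlx5 lacked a value on 1 array. After GDF8, 2 of the 63 fell and 0 rose at limma's adjusted p under 0.05, where 1.95% of all tested probes fell; at an unadjusted p under 0.05, 9 of the 63 were lower and 3 higher, where 6.69% of all tested probes were lower and 5.47% higher. Both falls were BMP-type ligands. The median over the 58 genes not saturated in a whole group was 0.02, against 0.01 for all tested probes. The brightest probes of Bmpr2, Ski, Nbl1, Fstl1 and Myog were saturated in all 4 untreated channels and are given no ratio. Other probes of Bmpr2 ran from -0.07 to 0.05 and those of Ski from 0.09 to 0.30, and 0 of them passed.

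Gdf5, a ligand of joints and cartilage that acts through Bmpr1b, fell 2.01-fold (-1.01 ± 0.15, adjusted p = 0.020). Its signals were 10.87, 10.94, 10.85 and 10.82 in GDF8 replicates 1 to 4, against 12.08, 12.27, 11.27 and 11.91 in untreated replicates 1 to 4. The groups did not overlap, with GDF8 the lower, as for 3.51% of all tested probes. The GDF8 samples were close together and the untreated samples were not, so that replicate 3 differed by only -0.42, against -1.08 to -1.34 on the other arrays. Without replicate 1 or replicate 4 the call was lost (adjusted p = 0.054 and 0.063), with ratios of -0.98 and -1.04.

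Gdf6, its close relative, fell 1.43-fold (-0.51 ± 0.09, adjusted p = 0.034). Its array ratios were -0.45, -0.65, -0.59 and -0.35 on replicates 1 to 4, lower in GDF8 on every array, although the signals of the groups overlapped. The probe was dim, with mean log2 signals of 8.57 in GDF8 and 9.08 in untreated samples. Over 16 alternative ways of processing the ratio ran from -0.68 to -0.43. Leaving out any replicate lost the call, with adjusted p-values from 0.086 to 0.20. Of the other ligands, Bmp3, Bmp6, Bmp7, Bmp8a and Gdf7 lay between -0.32 and 0.22 without passing, and 9 (Bmp2, Bmp5, Bmp8b, Bmp10, Bmp15, Gdf2, Gdf3, Gdf10 and Amh) were not well above background on all 4 arrays of either treatment.

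**Figure D4:**
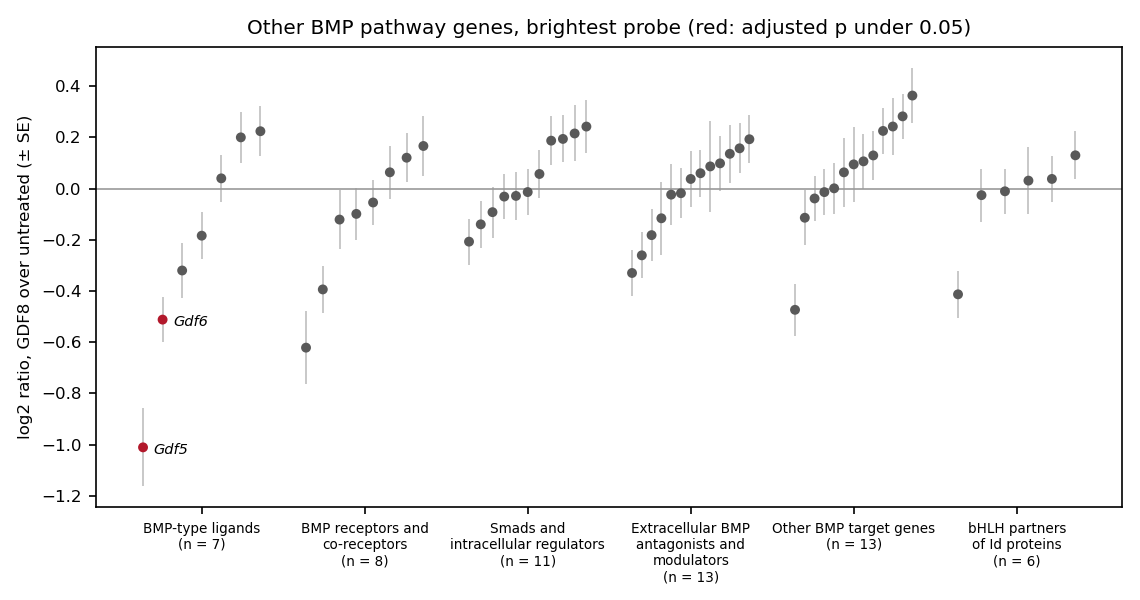
Log2 ratio of GDF8 over untreated with its standard error (y axis) for the 58 measured pathway genes not saturated in a whole group, in 6 lists by role (x axis) and sorted by ratio within each. Gdf5 (-1.01) and Gdf6 (-0.51), in red, are the genes past an adjusted p of 0.05.

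Among 9 measured receptors and co-receptors, 0 passed in either direction. The lowest ratios were in 2 co-receptors of the repulsive guidance molecule family that bind BMPs: Hjv (hemojuvelin), a gene of skeletal muscle and liver, gave -0.62 ± 0.14 (limma adjusted p = 0.086) and Rgmb gave -0.39 ± 0.09 (adjusted p = 0.087). Other Rgmb probes ran from -0.45 to -0.07, and 0 of them passed. Hjv gave -0.83, -0.89 and -0.70 on replicates 1, 2 and 4 but -0.06 on replicate 3, and its value turned on single arrays: without replicate 3 it passed at -0.83 (adjusted p = 0.019), and without replicate 2 it was -0.41 (adjusted p = 0.33). Without replicate 1 or 4 the adjusted p was 0.17 and 0.19. The type I receptor Bmpr1b gave 0.17 ± 0.12, and the type II receptors Acvr2a and Acvr2b gave -0.10 and 0.12. The Acvr1 probe was saturated in 2 of 4 GDF8 and 2 of 4 untreated channels, which limits its ratio (-0.12).

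Of 12 Smads and intracellular regulators, 0 passed. Smad7, the inhibitory Smad shared with the TGF-beta arm, gave 0.24 ± 0.10 (adjusted p = 0.41), with 0.14 without replicate 2 and 0.34 without replicate 3, and Tob1, a repressor of BMP Smads, gave -0.21 ± 0.09. Smad5 and Smad4 gave -0.03 and -0.01, each saturated in some channels of both groups, which limits those ratios. Other Smad5 probes ran from -0.17 to 0.18 and the other Smad4 probe gave 0.08, and 0 of them passed. Of 15 extracellular antagonists and modulators, 0 passed. Fst, follistatin, gave -0.33 ± 0.09 (adjusted p = 0.15) with ratios of 0.05 and 0.15 with GDF8 in Cy5 and -0.83 and -0.68 with GDF8 in Cy3, and was saturated in 1 untreated channel. Nog, noggin, was below 0 on all arrays at -0.26 ± 0.09 (adjusted p = 0.28), beside the -0.16 of Grem1.

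Of 13 measured BMP target genes outside the Id family, 0 passed. Bglap, osteocalcin, gave -0.47 ± 0.10 (adjusted p = 0.069) and Runx2, the bone regulator, 0.36 ± 0.11 (adjusted p = 0.19), though other Runx2 probes ran from -0.19 to 0.21. Msx1 and Msx2, classical BMP targets, gave 0.13 and 0.06, and Alpl, the alkaline phosphatase that BMPs are known to induce in C2C12, was above background in 3 of 4 GDF8 and 2 of 4 untreated channels. Of the 7 bHLH partners of Id proteins 0 passed: Myf6 gave -0.41 ± 0.09 (adjusted p = 0.077) with -0.36, -0.39, -0.36 and -0.54 on replicates 1 to 4, and the E-protein gene Tcf3 gave 0.13 ± 0.09. The Myf6 probe was dim, with mean log2 signals of 8.13 in GDF8 and 8.55 in untreated samples. Its ratio ran from -0.62 to -0.29 over 16 alternative ways of processing. Myf5 gave 0.03 ± 0.13, and the Myod1 probe was saturated in 3 of 4 GDF8 and 2 of 4 untreated channels, which limits how far its ratio (-0.01) can move.

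Over 16 alternatives the fitted ratio of Amhr2 ran from -1.32 to -1.06 and that of the brighter Id4 probe from -0.56 to -0.38. The ends of both ranges came from leaving out a replicate. Several alternatives cannot move a fitted ratio, since they change only its error, the probes kept or the adjustment, and Aquantile changes none of these, so they add nothing to its stability. Gdf5 and Gdf6 kept their direction in these alternatives but not always their call.

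**Figure D5:**
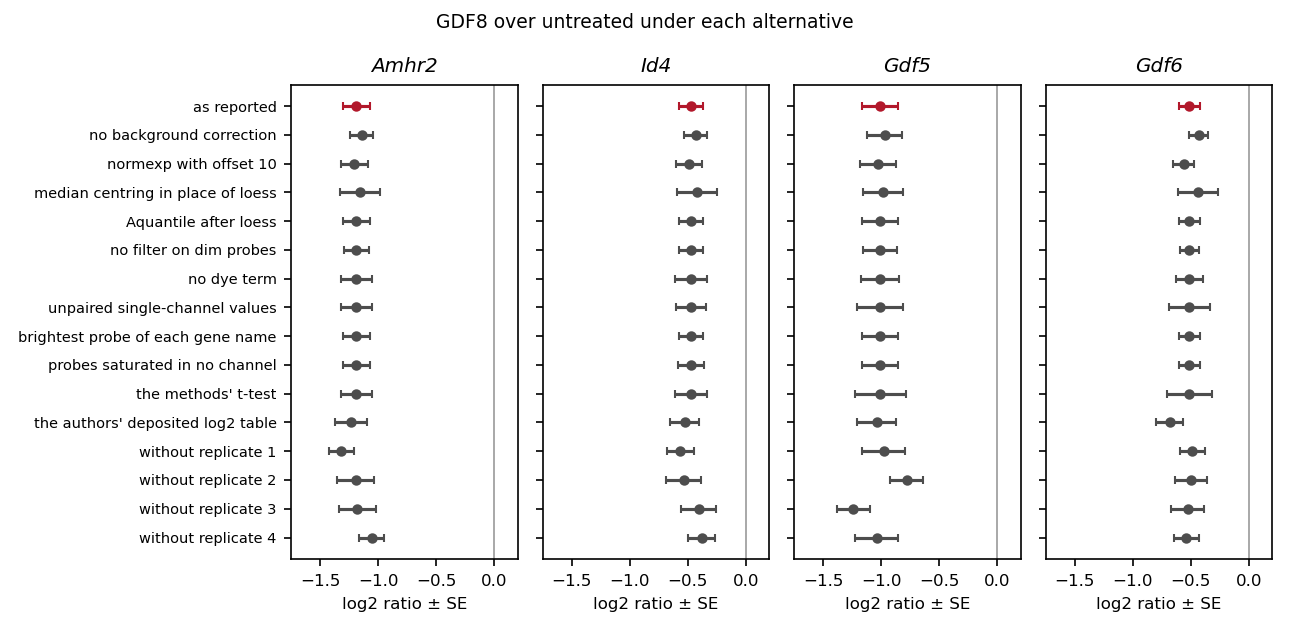
Fitted log2 ratio of GDF8 over untreated with its standard error (x axes) for Amhr2, Id4, Gdf5 and Gdf6 as reported (red) and under 15 of the 16 alternatives (y axis). The alternative chosen after seeing the data is not drawn, since it repeats the methods' t-test with another adjustment. Several drawn alternatives, such as Aquantile, no dye term and the methods' t-test, also leave the ratio as reported by construction. All values lie below 0, Amhr2 between -1.32 and -1.06 and Gdf5 between -1.24 and -0.78.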

How the data were processed

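Total RNA of GDF8 and untreated C2C12 cells was hybridised to 4 two-colour arrays (design 014868) on 1 slide. Per the file headers, the authors' Agilent Feature Extraction 9.1.1.1 files hold spot intensity, a log10 ratio of red over green and, as other columns, flags for saturation, outliers and signal well above background. The authors' deposited log2 table equalled GDF8 over untreated from the processed signals, within 0.001, in 100% of 40929 probes printed once; its columns were not centred (medians 0.14, -0.09, -0.11 and 0.09). Per the series' design text, GeneSpring GX 12, flag filters, an unpaired test and a 1.6-fold threshold were used. No column lacked a sample.

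Mean signals were corrected by normexp (offset 50) and loess in limma 3.58.1 (R 4.3.3). Flagged spots were dropped and spots of a probe averaged. A probe entered if well above background on all 4 arrays of a treatment and present on every array (26579). Each probe was fitted with a GDF8 and a dye term, Benjamini-Hochberg adjusted over all. Sample signals are after loess and Aquantile. The brightest probe stood for a list gene, named through RefSeq (24375 probes by accession, 6301 by symbol, 2426 by synonym; 8072 kept the file's name).

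The 10 members, the gene lists and the tests were chosen with earlier results of these data known. Named besides the members were, from each pathway list, up to 4 genes past the threshold or else the 2 with the smallest p, and 5 probes nearest to Id4 and to Amhr2. The neighbours on the chromosome were taken by map order and the markers from lists by cell type. These and any other named gene, such as the remaining list genes, were named with their values seen. The fit was run on ratios simulated from the fitted model itself. That checks the calculation only and cannot speak to shared RNA or saturation. The number of arrays limits precision. No genome build is stated for the array, so no probe coordinates are given.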

Additional observations from a re-analysis of the deposited data

Results flagged for a closer look

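In 103 sets of 4 replicate values searched for a sample far from the others, 7 samples stood out, where chance flags about 1 in 20. Amhr2 on replicate 4 (-1.58) lay apart from -1.08 to -1.05 on the other arrays. By the dimmer Id2 probe, replicate 1 was low in both samples of the array, at 11.30 in GDF8 against 12.38 to 12.45 in the other GDF8 samples, and at 11.11 in untreated against 12.24 to 12.35 in the other untreated samples, while its ratio (0.19) was not apart. By the dimmer Id1 probe, GDF8 replicate 4 was high (14.77 against 14.60 to 14.62). Among pathway genes, the Fstl3 ratio was 0.38 on replicate 3 against 0.12 to 0.14 elsewhere, that of Dand5 was -0.25 on replicate 4 against 0.05 to 0.08, and that of Myf5 was 0.54 on replicate 3 against -0.19 to -0.09.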

How the results depend on the processing

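Amhr2 was the member past the threshold under each of the 16 alternatives, and no other member probe passed in any of them. Nothing is read from these calls, since the members were chosen on their ratios and every alternative draws on the same 4 arrays. All member values by the brighter probe moved by less than 1 SD of their array ratios. Part of this was fixed in advance, since several alternatives repeat the reported ratio by construction. Signs turned in a few settings for Id2 (lowest -0.02), Id3 (highest 0.03) and Smad1 (lowest -0.001), all near 0. All other named pathway genes kept their sign. Pathway genes lower numbered 1 with no background correction, 1 without the dye term, 1 by the methods' t-test (p under 0.05, fold over 1.6), and 0 in the unpaired single-channel fit with no replicate block; leaving out a replicate gave 0 to 2, and 0 were higher in each setting. Median centring called Gdf5 and Hjv, and the authors' deposited table called Gdf5, Gdf6 and Myf6. Under median centring the members and named pathway genes all had the same standard error (0.18). A call there therefore followed the size of the ratio and not the spread of the gene's own arrays. Gdf6 lost its call in 10 of 16 alternatives and Gdf5 in 4 (adjusted p up to 0.57 and 0.17). Over all probes, 88 were higher without the dye term, 70 higher and 294 lower in the unpaired fit with no replicate block (2080 at an unadjusted p under 0.05), and 87 higher by the methods' t-test. Leaving out a replicate gave 30 to 155 higher and 185 to 443 lower. With Benjamini-Hochberg adjustment, an alternative chosen after seeing the data, that t-test gave 26 higher, 77 lower and 0 pathway genes. The causes were not tested. Saturation limits the brighter Smad1 and Bmpr1a probes, and Bmp4, which have no value with saturated probes left out.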
